A study of Mus musculus with 10 samples.

Results

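A set of caspases, with a scaffold and a mitochondrial protease that act with them, was followed through lipopolysaccharide (LPS) stimulation of mouse dendritic cells. The members are Casp1, Casp2, Casp4, Casp6, Casp8, Casp9, Apaf1 and Htra2. These 8 genes were taken, out of the 12393 genes named by a single symbol on the platform, by matching the platform's gene symbol on every probe set. They are read by 11 of the 22690 probe sets, and 9 of the 11, covering all 8 genes, were bright enough to enter the statistical model. Each of the 10 arrays was hybridised with RNA of bone marrow derived dendritic cells, with 1 array a condition and no replicate. Wild-type cells came from C57BL/6 mice and CD14-deficient cells from Cd14-/- mice on the same background, all 6 to 8 weeks old. Marrow was cultured for 7 to 10 days with supernatant of B16 cells transduced to secrete GM-CSF, and over 90% of the cells were CD11c+ by the labels. In each genotype 1 culture was unstimulated and harvested at 24 h, and 2 received smooth LPS at 1 µg/ml for 48 or 60 h. Another 2 received the same LPS with 50 nM thapsigargin for 48 or 60 h. No culture received thapsigargin without LPS. The question stated for the arrays was which genes of apoptosis depend on NFAT, the calcium-dependent transcription factor.

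Caspases are proteases made as inactive precursors, so the RNA level measured here is the supply of a precursor and not its activity. The inflammatory caspases act in pyroptosis: Casp1 is activated on inflammasomes and matures interleukin-1 beta and interleukin-18, and Casp4, the mouse gene long called caspase-11, binds LPS in the cytosol. Both cut gasdermin D, which opens pores in the plasma membrane. The apoptotic members act elsewhere. Casp8 is the initiator at death receptors, Casp2 the initiator of the PIDDosome, and Casp9 the initiator that Apaf1 assembles into the apoptosome once cytochrome c leaves mitochondria. Casp6 is an effector known for cutting nuclear lamins, and Htra2 is a mitochondrial protease that, once released, relieves caspases of their inhibitors. CD14 binds LPS at the cell surface and hands it on to TLR4. Thapsigargin inhibits SERCA, the pump that fills the calcium store, and so raises cytosolic calcium, the signal that activates NFAT.

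Casp1 and Casp4 are neighbours on chromosome 9, in the protein-coding order Gria4, Casp1, Casp4, Casp12, and their promoters are shown because they are the inflammatory pair that the other members are set against. RefSeq promoter windows (GRCm38.p6, 250 bases before to 50 bases after the annotated start site) matched 7 of the 8 genes, with 8 windows in all, 2 of them for Casp4. The windows printed are chr9:5298267-5298566 on the plus strand for Casp1, chr9:5308599-5308898 on the plus strand for Casp4, and, as an apoptotic contrast, chr1:58802252-58802551 on the plus strand for Casp8. Capitals mark bases inside a match to the NF-kappaB consensus.
Casp1: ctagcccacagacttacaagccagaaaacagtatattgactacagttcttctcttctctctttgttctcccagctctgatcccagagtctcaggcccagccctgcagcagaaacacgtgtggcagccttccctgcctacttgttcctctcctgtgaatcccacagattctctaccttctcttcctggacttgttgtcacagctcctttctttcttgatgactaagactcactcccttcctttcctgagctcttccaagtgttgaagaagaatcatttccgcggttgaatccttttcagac
Casp4: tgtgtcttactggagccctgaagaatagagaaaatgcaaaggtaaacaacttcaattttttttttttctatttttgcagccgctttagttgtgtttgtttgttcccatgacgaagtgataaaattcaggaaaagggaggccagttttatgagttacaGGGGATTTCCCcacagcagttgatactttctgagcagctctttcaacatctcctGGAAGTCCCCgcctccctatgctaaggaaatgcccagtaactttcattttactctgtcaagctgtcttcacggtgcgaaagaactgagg
Casp8: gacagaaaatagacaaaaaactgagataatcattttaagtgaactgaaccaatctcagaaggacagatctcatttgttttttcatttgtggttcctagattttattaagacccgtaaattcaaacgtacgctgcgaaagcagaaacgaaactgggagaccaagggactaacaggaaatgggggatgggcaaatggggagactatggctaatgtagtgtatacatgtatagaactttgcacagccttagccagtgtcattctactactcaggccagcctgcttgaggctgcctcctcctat

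Both strands were searched for 4 motifs, the NF-kappaB consensus, the ISRE core GAAANNGAAA, the GAS core TTCNNNGAA and the NFAT core GGAAA. Casp4 was the only member whose windows held any of the first 3. Its window printed above held 4 NF-kappaB matches in 2 separate stretches, 3 overlapping ones starting at -93 and -92 (the latter on both strands) and 1 starting at -39 from the start site. Of all 32851 promoter windows of this length, 8.46% held the NF-kappaB consensus, 3.44% the ISRE core, 8.30% the GAS core and 61.3% the NFAT core. NFAT cores were found 3 times in that Casp4 window, 1 of them inside an NF-kappaB stretch, 2 times in Casp1 and in Casp2, and 1 time in Casp8 and in Casp6. The windows of Casp9 and Apaf1 held none of these letters. A match is a description of the letters and not evidence that a factor binds there.

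Signals are the deposited MAS5 intensities, a linear brightness for each probe set, scaled to a common trimmed mean of 509. The pooled median signal was 99.2, and a probe set entered the model if it was above that on at least 2 arrays. Labelled cRNA ran from 15 to 53.1 µg and RNA integrity numbers from 8.4 to 10. The lowest yields were on the CD14-deficient LPS array at 48 h, with 15 µg, and the wild-type LPS array at 60 h, with 19 µg. On these same arrays the 3 control probe sets for 18S rRNA read 114 to 685, against 1426 to 12656 on the other 8. The Gapdh 3'/5' ratio was 0.98 and 0.85 on them, against 0.71 to 0.76 elsewhere, and the actin ratio was 1.62 on the wild-type array at 60 h, against 1.02 to 1.14 elsewhere. The targeted gene read as labelled: Cd14 gave 1499 to 17729 in wild-type cells and 1.85 to 7.35 in CD14-deficient cells. The 12 dendritic markers were uneven. The class II gene H2-Ab1 stayed between 5942 and 9822, and Itgax, which encodes CD11c, ran from 750 to 7838. Cd209a went from 167 and 501 unstimulated to between 3.58 and 33.1 on the 8 stimulated arrays. Clec10a went from 706 and 1086 to between 20.1 and 93.1. Ccr7 went the other way, from 3414 and 2667 to between 3531 and 16168. Batf3 read 802 and 744 unstimulated and 713 to 3488 stimulated. Flt3 was under 99.2 on 7 of the 10 arrays and highest, at 1149 and 334, on the CD14-deficient LPS arrays. None of 5 T and NK markers and none of 3 erythroid markers rose above the filter, against 1 of 4 B-cell and 2 of 5 mast and basophil markers. The summed signal of 11 macrophage markers ran from 10693 to 48240, and was lowest on the CD14-deficient LPS array at 48 h.

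**Figure D1:**
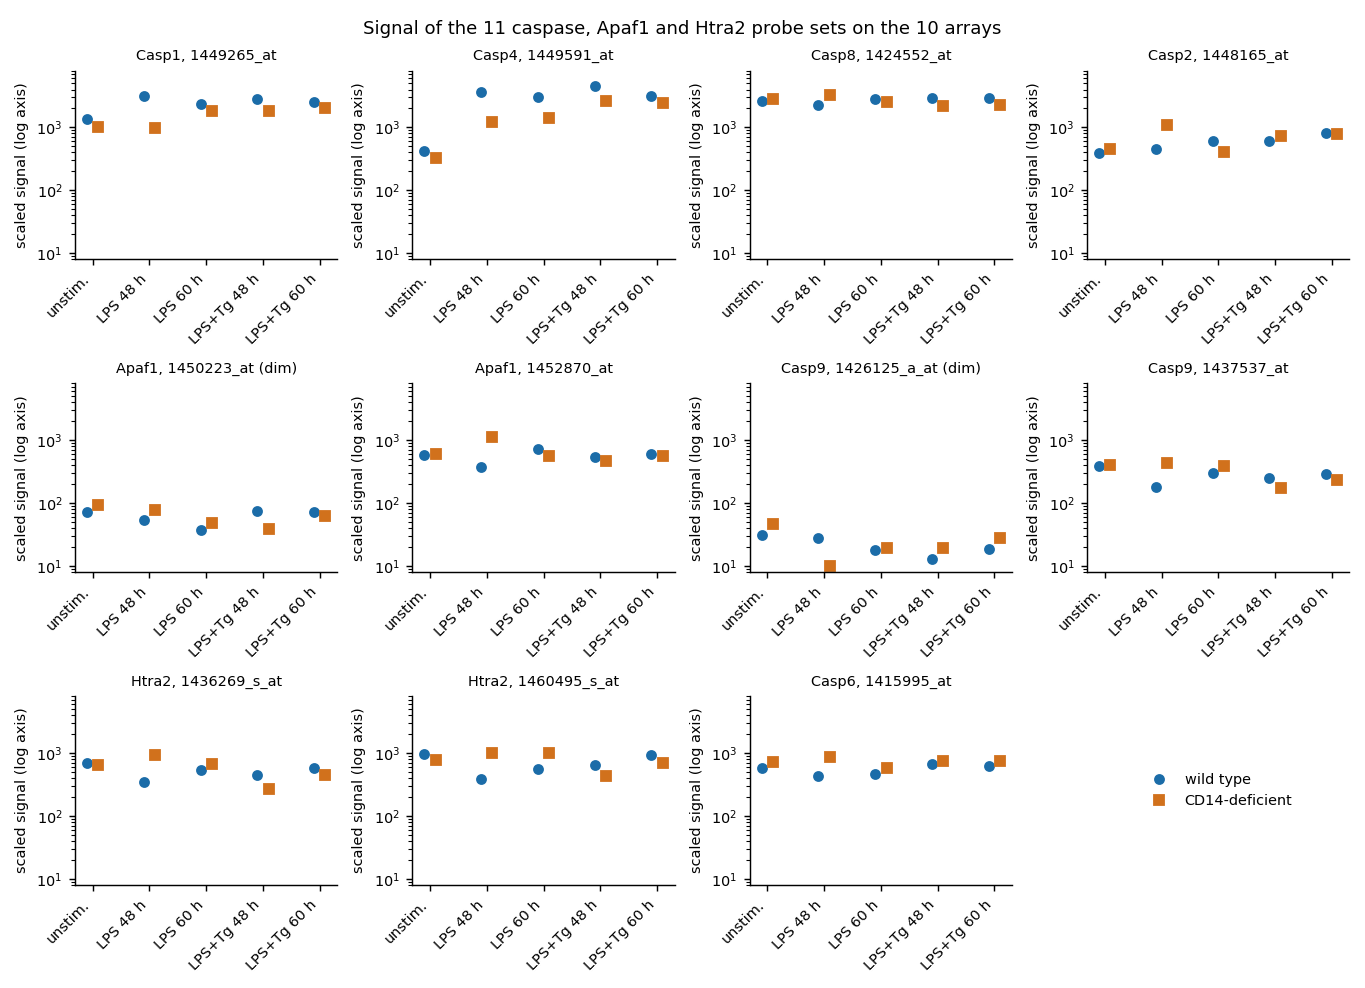
Scaled signal, on a log axis, of the 11 member probe sets on the 10 arrays, with blue circles for wild type and orange squares for CD14-deficient cells and 1 point an array. Casp4 went from 424 and 323 without stimulation to between 1201 and 4526 with it, while the other probe sets lay within narrower bands.

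Casp4, the cytosolic LPS sensor, was the member with the largest change. Wild-type cells gave a signal of 424 unstimulated, 3707 at 48 h and 3041 at 60 h of LPS, and 4526 and 3209 with thapsigargin added. CD14-deficient cells gave 323 unstimulated, 1201 and 1410 with LPS, and 2649 and 2475 with LPS and thapsigargin. All 8 stimulated arrays lay above both unstimulated arrays, a pattern held by 18.1% of the 11649 probe sets tested. The reverse pattern, all 8 below, was held by 19.4% of probe sets and by no member. Marker sums moved with stimulation too: that of 9 neutrophil markers was 17307 and 18045 unstimulated and 1376 to 11853 stimulated, and that of 4 stromal markers was 24.0 and 30.2 unstimulated and 176 to 2863 stimulated. The neutrophil markers did not move together. S100a9 went from 2410 and 3692 unstimulated to at most 238. Camp went from 51.8 to 118 and 122 with LPS in wild-type cells, and from 196 to 345 and 356 in CD14-deficient cells. Mmp8 went from 6685 to 9582 with LPS at 60 h in CD14-deficient cells. Of the 4 stromal markers only Dcn and Lum passed the filter, with Col1a1 at most 17.9 and Col1a2 at most 58.5 on any array. The part of the neutrophil and stromal markers in the members' changes was not tested.

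The fitted rise of Casp4 with LPS was 2.98 ± 0.26 on the log2 scale in wild-type cells (SE, limma adjusted p = 0.00430), a 7.92-fold change. In CD14-deficient cells it was 2.01 ± 0.26 (limma adjusted p = 0.0269), or 4.03-fold. With LPS and thapsigargin together it was 3.17 ± 0.26 in wild-type cells (limma adjusted p = 0.00333) and 2.99 ± 0.26 in CD14-deficient cells (limma adjusted p = 0.00373). Casp4 was the only 1 of the 9 member probe sets to pass in each of these comparisons. Over all probe sets, 6.53% were called higher and 7.7% lower with LPS in wild-type cells, and 1.49% and 1.26% in CD14-deficient cells. With LPS and thapsigargin the shares were 9.75% and 9.19% in wild-type cells, and 10.2% and 9.87% in CD14-deficient cells. Within a genotype the LPS comparison and the LPS with thapsigargin comparison share their unstimulated array. That array was harvested at 24 h and the stimulated ones at 48 or 60 h. Time in culture and stimulation therefore cannot be told apart in any change from the unstimulated array. With 1 array a condition these p-values measure departure from a common shift between 48 and 60 h, and say nothing of how cultures or mice vary.

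The wild-type rise with LPS alone passed in all 18 alternatives run, with adjusted p up to 0.0458. The CD14-deficient rise with LPS was lost in 7 of 18, including when any 1 of the 4 stimulated wild-type arrays or either CD14-deficient thapsigargin array was left out (limma adjusted p from 0.0782 to 0.116, with the estimate still at 2.01). The rise with LPS and thapsigargin in wild-type cells fell short without that treatment's 48 h array, at 2.94 (limma adjusted p = 0.0529). In CD14-deficient cells it fell short without either array of that treatment, at 3.03 and 2.95 (limma adjusted p = 0.0526 for both).

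**Figure D2:**
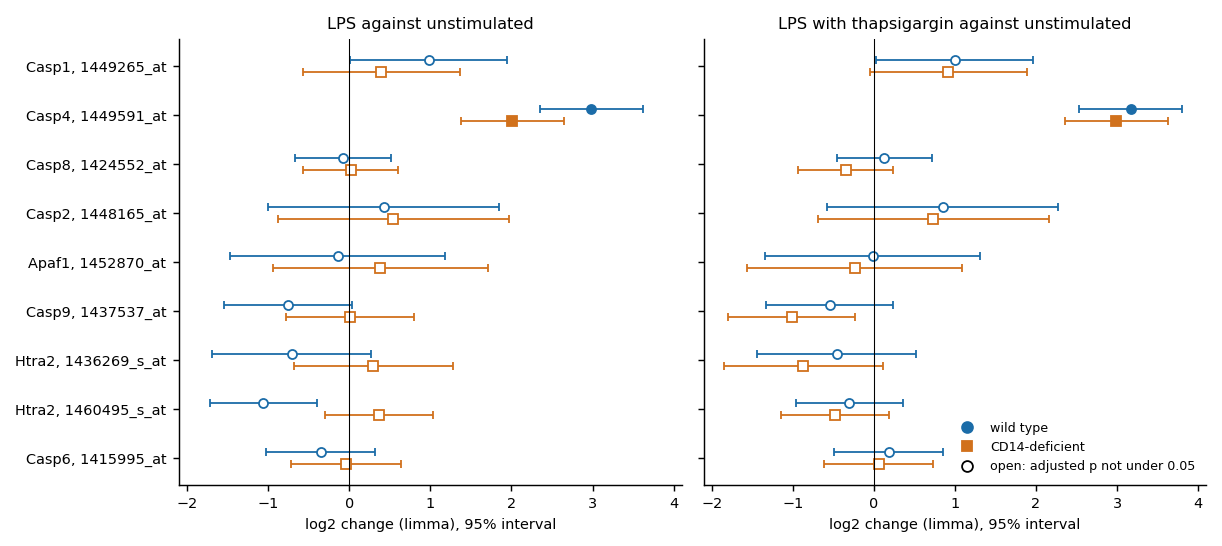
Fitted log2 change from the unstimulated array, with 95% intervals from limma, for LPS (left) and LPS with thapsigargin (right); filled symbols passed the adjusted threshold of 0.05. Only the Casp4 symbols are filled, at 2.01 to 3.17.

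Casp1, the inflammasome protease, moved in the same direction as its neighbour on 7 of the 8 stimulated arrays and by less. Its signal in wild-type cells was 1359 unstimulated, 3108 and 2316 with LPS, and 2875 and 2549 with LPS and thapsigargin. In CD14-deficient cells it was 1023 unstimulated, 982 and 1842 with LPS, and 1852 and 2016 with LPS and thapsigargin. The CD14-deficient LPS array at 48 h was thus the lowest of all 10 arrays for Casp1 and was level with its unstimulated array, at a log2 difference of -0.06. The lowest of the 10 arrays was this one for 18.8% of all probe sets.

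No Casp1 comparison passed with all 10 arrays. The log2 estimates were 0.98 ± 0.40 for LPS in wild-type cells (limma adjusted p = 0.149) and 0.39 ± 0.40 in CD14-deficient cells (limma adjusted p = 0.610). For LPS with thapsigargin they were 0.99 ± 0.40 (limma adjusted p = 0.133) and 0.92 ± 0.40 (limma adjusted p = 0.152). These calls turned on the 2 CD14-deficient LPS arrays. Without the 48 h array the same 4 estimates were 0.98, 0.93, 0.99 and 0.92, and all passed (limma adjusted p = 0.00862, 0.0446, 0.00720 and 0.00915). Without the 60 h array instead, the CD14-deficient estimate with LPS was -0.14 and did not pass (limma adjusted p = 0.645), and the other 3 passed (limma adjusted p = 0.00886, 0.00735 and 0.00935). Each omission leaves 1 array in that condition, which is then assumed to vary like the rest. The wild-type count over all probe sets rose from 1658 to 4809 or 4816 with them.

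Wild-type cells had more Casp1 and Casp4 signal than CD14-deficient cells in all 5 matched pairs of arrays. For Casp4 the log2 difference was 0.39 unstimulated, 1.63 and 1.11 with LPS at 48 and 60 h, and 0.77 and 0.37 with thapsigargin added. For Casp1 it was 0.41 unstimulated, 1.66 and 0.33 with LPS, and 0.63 and 0.34 with thapsigargin added. Of all probe sets, 6.76% were higher in wild type in all 5 pairs. For both genes the lowest of the 4 stimulated wild-type arrays also lay above the highest of the 4 stimulated CD14-deficient arrays, by 3041 to 2649 for Casp4 and 2316 to 2016 for Casp1. That separation was found in 3.1% of probe sets, and the reverse, which no member showed, in 3.32%.

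Under LPS alone the fitted genotype difference of Casp4 was 1.37 ± 0.21 (limma adjusted p = 0.0333), 2.58-fold, and it was the only member called. Over all probe sets 2.55% were higher and 2.23% lower in wild type in that comparison. The Casp4 call was lost without any 1 of 6 arrays, the 4 stimulated wild-type arrays and both CD14-deficient thapsigargin arrays, with estimates of 1.29 to 1.45 (limma adjusted p from 0.114 to 0.243). For Casp1 the difference was 1.00 ± 0.32 (limma adjusted p = 0.123). It was 1.53 without the 60 h LPS array of CD14-deficient cells (limma adjusted p = 0.00297) and 0.46 without the 48 h one (limma adjusted p = 0.144). With thapsigargin the differences were 0.57 ± 0.21 for Casp4 and 0.49 ± 0.32 for Casp1, and in unstimulated cells 0.39 ± 0.30 and 0.41 ± 0.46. None of these 4 passed (limma adjusted p = 1 for each). In all, 0.0258% of probe sets were called between the genotypes with thapsigargin and 0.00858% without stimulation.

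Whether LPS moved the genes differently in the 2 genotypes was tested directly. The difference of LPS responses, wild type minus CD14-deficient, was 0.97 ± 0.37 for Casp4 (limma adjusted p = 0.578) and 0.59 ± 0.56 for Casp1 (limma adjusted p = 0.792). No probe set passed that test in limma (0% of 11649; 976 had an unadjusted p under 0.05). Without the 60 h LPS array of CD14-deficient cells, these differences were 1.24 (limma adjusted p = 0.0277) and 1.12 (limma adjusted p = 0.0493). Without the 48 h one they were 0.71 (limma adjusted p = 0.197) and 0.05 (limma adjusted p = 0.937).

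**Figure D3:**
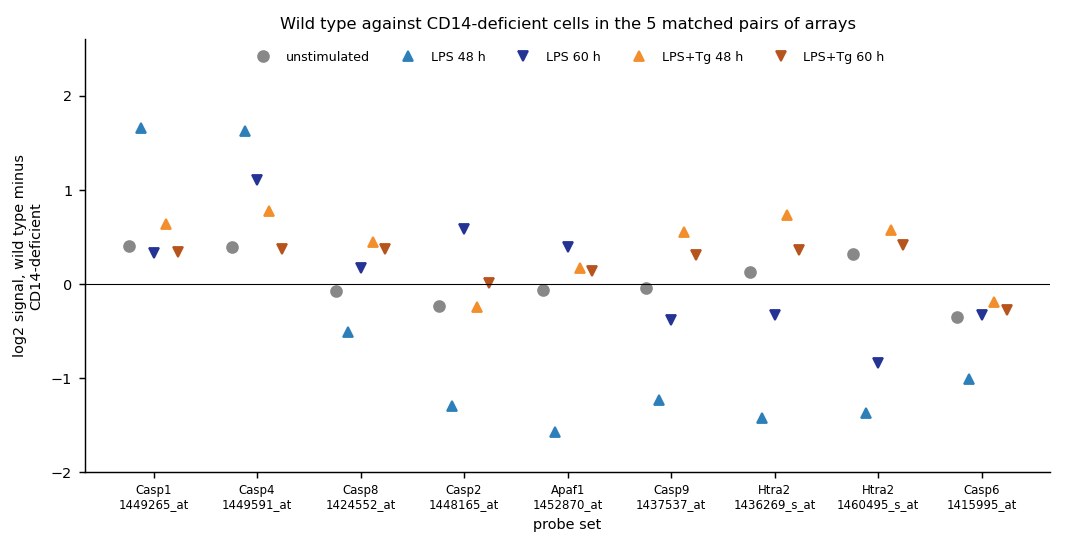
Log2 signal of wild-type minus CD14-deficient cells for the 9 member probe sets in the model, with 1 point for each of the 5 matched pairs of arrays. Casp1 and Casp4 lie above 0 in all 5 pairs and Casp6 below 0 in all 5. For 7 of the 9 probe sets the 48 h LPS pair is the lowest, a share not counted over all probe sets.

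Among the apoptotic initiators, Casp8 had the steadiest signal of the 9 probe sets. Wild-type cells gave 2672 unstimulated, 2264 and 2830 with LPS, and 2953 and 2890 with LPS and thapsigargin. CD14-deficient cells gave 2803 unstimulated, 3219 and 2509 with LPS, and 2171 and 2233 with LPS and thapsigargin. The LPS arrays of the genotypes overlapped, while both wild-type thapsigargin arrays lay above both CD14-deficient ones. The fitted change with LPS was -0.08 ± 0.24 in wild-type cells, with a 95% interval of -0.66 to 0.51, and 0.02 ± 0.24 in CD14-deficient cells, from -0.57 to 0.61.

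Casp2, the initiator of the PIDDosome, read 389 unstimulated, 451 and 607 with LPS, and 617 and 799 with LPS and thapsigargin in wild-type cells. CD14-deficient cells read 459, 1103, 405, 732 and 793 in the same order. The 48 h LPS array of CD14-deficient cells was the highest of the 10 and the 60 h array the lowest of the stimulated ones, so the 2 arrays of that condition bracket all other stimulated arrays. Both thapsigargin arrays were above the unstimulated array in each genotype, but the estimates of 0.85 ± 0.58 and 0.73 ± 0.58 did not pass (limma adjusted p = 0.347 and 0.406). These estimates stayed the same with either LPS array of CD14-deficient cells left out. Whether they passed depended on those arrays, and each omission leaves 1 array in that condition.

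Casp9 and its scaffold Apaf1 were each read by 1 usable and 1 dim probe set. The usable Casp9 probe set gave 392 in unstimulated wild-type cells, 182 and 297 with LPS, and 250 and 288 with LPS and thapsigargin. In CD14-deficient cells it gave 403 unstimulated, 427 and 386 with LPS, and 171 and 233 with LPS and thapsigargin. All 4 stimulated wild-type arrays and both CD14-deficient thapsigargin arrays lay below both unstimulated arrays, while the CD14-deficient LPS arrays lay on either side of that pair. The estimate for LPS in wild-type cells was -0.76 ± 0.32 (limma adjusted p = 0.164), and that for LPS with thapsigargin in CD14-deficient cells was -1.02 ± 0.32 (limma adjusted p = 0.0744). Both estimates stayed the same with either LPS array of CD14-deficient cells left out. Their calls depended on those arrays, and each omission leaves 1 array in that condition. The other Casp9 probe set read 10.1 to 46.0, below the filter on all 10 arrays.

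Apaf1 gave 578 in unstimulated wild-type cells, 378 and 727 with LPS, and 535 and 612 with LPS and thapsigargin. CD14-deficient cells gave 605 unstimulated, 1122 and 555 with LPS, and 474 and 555 with LPS and thapsigargin. The highest and the lowest of the 10 arrays were the LPS arrays at 48 h of the 2 genotypes. At 60 h the LPS arrays had the opposite order. No Apaf1 comparison passed with all 10 arrays (limma adjusted p from 0.401 to 1). Without the 60 h LPS array of CD14-deficient cells, the genotype difference under LPS was -1.33 (limma adjusted p = 0.0147), and without the 48 h one it was 0.15 (limma adjusted p = 0.745). The dim Apaf1 probe set read 37.8 to 92.8. RefSeq places Ikbip across part of Apaf1 and Cela2a across part of Casp9, and which strand or gene the probes of an array read was not tested.

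Htra2, the mitochondrial protease, was read by 2 probe sets. The brighter gave 967 in unstimulated wild-type cells, 381 and 563 with LPS, and 654 and 941 with LPS and thapsigargin. CD14-deficient cells gave 774 unstimulated, 986 and 1007 with LPS, and 437 and 705 with LPS and thapsigargin. LPS alone was therefore below the unstimulated array in wild-type cells and above it in CD14-deficient cells at both times. The dimmer did the same, with 700, 344, 531, 444 and 583 in wild-type cells and 639, 922, 666, 267 and 455 in CD14-deficient cells, though the 10 arrays did not fall in the same order. Lower at both times in wild type and higher at both times in CD14-deficient cells was a pattern held by 5.33% of all probe sets. The gene overlaps Aup1 and Loxl3 in RefSeq, and the part of those transcripts in these signals was not tested.

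The fitted change of the brighter Htra2 probe set with LPS was -1.06 ± 0.27 in wild-type cells (limma adjusted p = 0.0525) and 0.37 ± 0.27 in CD14-deficient cells (limma adjusted p = 0.483). The genotype difference under LPS was -1.10 ± 0.22 (limma adjusted p = 0.0506). Neither passed, by a narrow margin. Under quantile normalization both did, at -0.99 (limma adjusted p = 0.0470) and -1.03 (limma adjusted p = 0.0465). The 2 estimates were -1.06 and -0.82 without the 48 h LPS array of CD14-deficient cells, and -1.06 and -1.39 without the 60 h one. Each omission leaves 1 array in that condition. For the dimmer probe set the same estimates were -0.71 ± 0.40 and -0.88 ± 0.33 (limma adjusted p = 0.276 and 0.159).

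Casp6, the effector caspase, was lower in wild-type than in CD14-deficient cells in all 5 matched pairs, by 0.19 to 1.01 on the log2 scale. That was so for 7.54% of all probe sets. Wild-type cells gave 569 unstimulated, 430 and 461 with LPS, and 669 and 622 with LPS and thapsigargin, and CD14-deficient cells 728, 862, 580, 761 and 756. The ranges of the genotypes overlapped between 580 and 669. The fitted genotype difference under LPS was -0.67 ± 0.22 (limma adjusted p = 0.131), and it was -0.95 without the 60 h LPS array of CD14-deficient cells (limma adjusted p = 0.00918) and -0.38 without the 48 h one (limma adjusted p = 0.182). The change from the unstimulated array with LPS was -0.35 ± 0.28 in wild-type and -0.04 ± 0.28 in CD14-deficient cells.

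Set side by side, the inflammatory and apoptotic members parted on most stimulated arrays. In wild-type cells the log2 change from the unstimulated array was 2.84 to 3.42 for Casp4 and 0.77 to 1.19 for Casp1. For the 7 apoptotic probe sets its median was -0.61 and -0.30 with LPS at 48 and 60 h, and -0.11 and 0.08 with thapsigargin added. The median over all probe sets stayed between -0.09 and 0.06 on these 4 arrays. In CD14-deficient cells Casp4 changed by 1.90 to 3.04, and the apoptotic median was 0.35 and -0.12 with LPS and -0.37 and -0.13 with thapsigargin added. At least 1 apoptotic probe set exceeded Casp1 on 2 of the 8 arrays: Casp2 on the wild-type thapsigargin array at 60 h, at 1.04 against 0.91, and all 7 on the CD14-deficient LPS array at 48 h. Casp4 was above all 7 on every stimulated array.

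**Figure D4:**
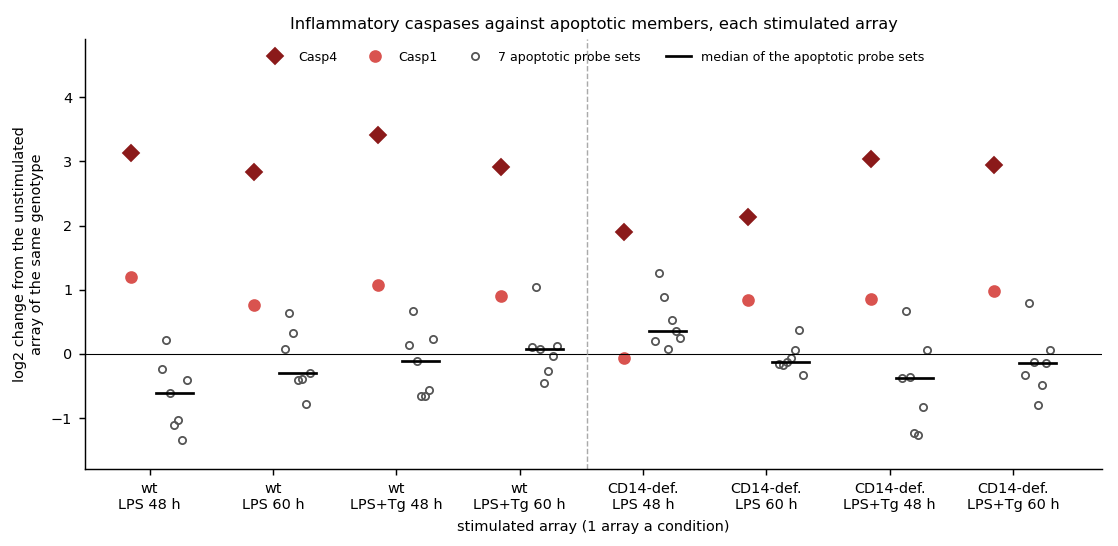
Log2 change from the unstimulated array of the same genotype on each of the 8 stimulated arrays, for Casp4 (diamonds), Casp1 (filled circles) and the 7 apoptotic probe sets (open circles, with a bar at their median). Casp4 is the highest point on each array, at 1.90 to 3.42, and on the CD14-deficient LPS array at 48 h all 7 apoptotic points lie above 0 and above Casp1.

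The CD14-deficient LPS array at 48 h was the highest or lowest of the 10 arrays for many probe sets, members and others. All 7 apoptotic probe sets were above the unstimulated array there, by 0.08 to 1.27 on the log2 scale, against 2 of 7 on the 60 h array of the same condition. The median change over all probe sets was 0.002 on both arrays, and the share of them above was not counted. The 48 h array was the highest of the 10 for 6 of the 9 member probe sets, and for 20% of all probe sets. These 6 were those of Casp2, Casp6, Casp8, Apaf1, Casp9 and 1 of Htra2. That array was the lowest for Casp1 alone among members, and for 18.8% of all probe sets. This was the array with the lowest cRNA yield, the lowest 18S controls and the lowest macrophage marker sum, 10693 against at least 16268 elsewhere. The macrophage markers were uneven there. Cd68, Csf1r and Msr1, at 1702, 4199 and 757, were at their lowest of the 10 arrays. C1qa and C1qb, at 220 and 280, lay above every thapsigargin array. Adgre1, at 2731, lay near its unstimulated 2695 and 2650. The dendritic marker sum of this array was the highest, 75487 against at most 66189 elsewhere. So were its B-cell sum, 521 against at most 236, and its mast and basophil sum, 508 against at most 362. In the mast and basophil sum Gata2 read 327. Mcpt8 and Cpa3 read 35.6 and 118, below the 70.2 and 144 of unstimulated wild-type cells. The dendritic markers did not move together on this array. Ccr7 read 16168 against at most 9547 elsewhere, while Itgax read 892 against 6941 on the 60 h array of the same condition. The part of the yields, controls and marker signals in the members' values was not tested. In a bulk sample, fewer cells of a type and less RNA in each cell cannot be told apart.

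Thapsigargin changed no member past the threshold with all 10 arrays. In wild-type cells no probe set of any gene passed in limma (0% of 11649; 1096 had an unadjusted p under 0.05), and in CD14-deficient cells 3.68% were higher and 3.03% lower. The Casp4 signal of CD14-deficient cells was higher with thapsigargin at both times, by 1.14 and 0.81 on the log2 scale, with a fitted 0.98 ± 0.21 (limma adjusted p = 0.0524). The same step in wild-type cells was 0.29 and 0.08, with a fitted 0.18 ± 0.21. With no time term the CD14-deficient estimate stayed at 0.98 and passed (limma adjusted p = 0.0455). It was 0.71 without the 48 h LPS array of CD14-deficient cells (limma adjusted p = 0.0275) and 1.24 without the one at 60 h (limma adjusted p = 0.00487). Casp9 gave steps of -1.32 and -0.73 in CD14-deficient cells and of 0.46 and -0.04 in wild-type cells. The CD14-deficient fit was -1.03 ± 0.26 (limma adjusted p = 0.0712), and the difference between the genotypes was 1.24 ± 0.37 (limma adjusted p = 0.281). Its fitted step was -1.33 without the 60 h LPS array (limma adjusted p = 0.0115) and -0.73 without the 48 h one (limma adjusted p = 0.0785).

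For Casp8 and both Htra2 probe sets, thapsigargin arrays were above the LPS arrays at both times in wild-type cells and below them at both times in CD14-deficient cells. This opposition was found in 8.62% of all probe sets. For the brighter Htra2 probe set the steps were 0.78 and 0.74 in wild-type cells and -1.17 and -0.51 in CD14-deficient cells. For the dimmer they were 0.37 and 0.13 against -1.79 and -0.55. Those of Casp8 were smaller, at 0.38 and 0.03 against -0.57 and -0.17. The test of the difference between the genotypes gave 1.60 ± 0.31 and 1.42 ± 0.46 for Htra2 and 0.58 ± 0.28 for Casp8 (limma adjusted p = 0.207, 0.292 and 0.423). No probe set passed that test in limma (0% of 11649; 1588 had an unadjusted p under 0.05). Without the 60 h LPS array of CD14-deficient cells the dimmer Htra2 probe set gave 1.95 (limma adjusted p = 0.00913), the brighter 1.88 (limma adjusted p = 0.00704) and Casp8 gave 0.81 (limma adjusted p = 0.0332). Without that at 48 h they gave 0.89, 1.32 and 0.34, and only the brighter Htra2 probe set passed (limma adjusted p = 0.0950, 0.0371 and 0.296).

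**Figure D5:**
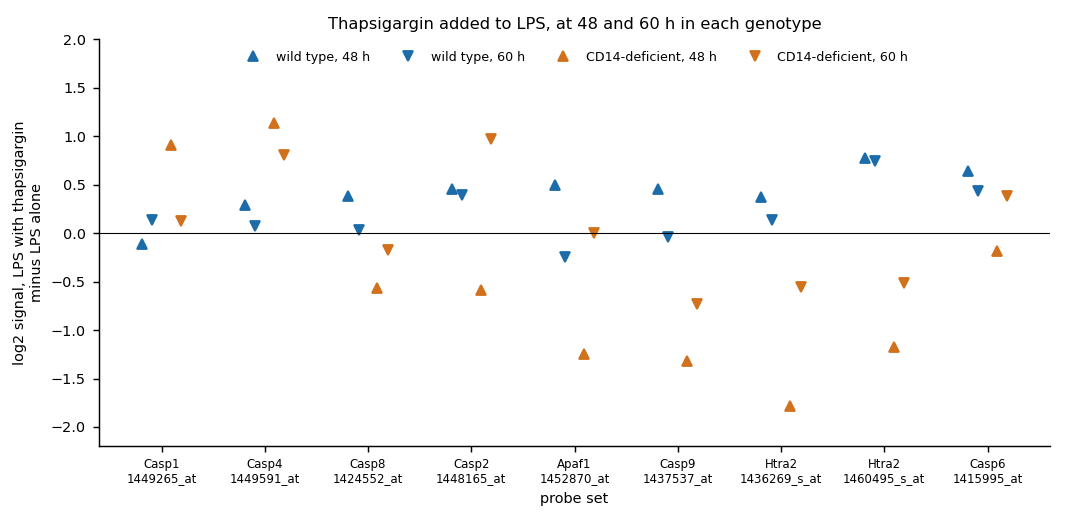
Log2 signal of LPS with thapsigargin minus LPS alone at 48 h (upward triangles) and 60 h (downward triangles), for the 9 member probe sets in the model. The Htra2 points lie above 0 in wild-type cells, from 0.13 to 0.78, and below 0 in CD14-deficient cells, from -1.79 to -0.51.

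The interval between 48 and 60 h moved no member past the threshold over the 8 stimulated arrays (0% of all probe sets were called in limma; 1043 had an unadjusted p under 0.05). The largest estimate was 0.45 ± 0.16 for the brighter Htra2 probe set (limma adjusted p = 0.525), and the others ran from -0.16 to 0.33.

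The partners of the inflammatory caspases were taken from a list of 24 genes of inflammasomes and pyroptosis, of which 16 were tested. With LPS in wild-type cells 5 were called higher and 1 lower, against 6.53% and 7.7% of all probe sets. The list median was 0.90 against -0.06 over all probe sets. In CD14-deficient cells 3 and 0 were called, against 1.49% and 1.26% of all probe sets. The largest rises were those of the substrate Il1b, 4.64 ± 0.18 in wild-type and 4.104 ± 0.18 in CD14-deficient cells (limma adjusted p = 0.000506 and 0.00131), and of Il1a, 4.06 ± 0.23 and 2.78 ± 0.23 (limma adjusted p = 0.00146 and 0.00919). Gbp2 and Gbp3, interferon-inducible GTPases, rose by 2.14 and 1.91 in wild-type cells. Pycard, the adaptor ASC that links sensors to Casp1, went the other way. Its signal was 6488 and 7048 unstimulated, 1663 and 2348 with LPS in wild-type cells, 4150 and 4966 with LPS in CD14-deficient cells, and 1747 to 2046 with thapsigargin in either genotype. Its genotype difference under LPS was -1.20 ± 0.17 (limma adjusted p = 0.0289), and its change with thapsigargin in CD14-deficient cells was -1.17 ± 0.17 (limma adjusted p = 0.0235).

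Partners of the apoptotic members were counted in the same way. With LPS 6.53% of all probe sets were called higher and 7.7% lower in wild-type cells, and 1.49% and 1.26% in CD14-deficient cells. Counts of 0 or 1 in the short lists below lie near these shares and are not a result about a list. Of 8 genes tested that form the platforms of Casp8 and Casp2, Cflar alone was called with LPS, which encodes the Casp8-like regulator cFLIP. Its signal was 357 and 300 unstimulated, 1917 and 1542 with LPS in wild-type cells and 1351 and 737 in CD14-deficient cells. The fitted rises were 2.27 ± 0.25 and 1.74 ± 0.25 (limma adjusted p = 0.00714 and 0.0320). Cradd, from the same list, was called lower in wild type in the genotype comparison under LPS, at -1.59 ± 0.31 (limma adjusted p = 0.0483). In that comparison 2.23% of all probe sets were called lower. Of 9 genes tested that control release from mitochondria, none was called with LPS in either genotype, and Aifm1, a flavoprotein of the intermembrane space, was called lower with LPS and thapsigargin in both, at -1.14 ± 0.30 and -1.36 ± 0.30 (limma adjusted p = 0.0483 and 0.0289). Septin4 was called in the genotype comparison under LPS, at -3.73 ± 0.43 (limma adjusted p = 0.0207), with signals of 299 and 175 on the CD14-deficient LPS arrays and at most 35.9 on the other 8.

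A few genes of the list of caspase inhibitors, which takes in serpins, were called, in both directions. Of 8 tested, Birc5, known both as an inhibitor and for its part in cell division, was called lower with LPS at -4.00 ± 0.35 in wild-type and -2.97 ± 0.35 in CD14-deficient cells (limma adjusted p = 0.00430 and 0.0233). With LPS and thapsigargin Birc5 was called lower too, at -3.93 ± 0.35 and -5.05 ± 0.35 (limma adjusted p = 0.00379 and 0.00202). Serpinb9b was called higher with LPS and thapsigargin in both genotypes, at 1.89 ± 0.44 and 1.69 ± 0.44 (limma adjusted p = 0.0358 and 0.0462), and Serpinb9, the granzyme B inhibitor, in CD14-deficient cells at 2.25 ± 0.57 (limma adjusted p = 0.0418). Of 13 caspase substrates and execution genes tested, none was called higher with LPS. Lmnb1, a nuclear lamin, and Gsn, an actin-severing protein, were called lower in wild-type cells, at -2.32 ± 0.32 and -1.63 ± 0.21 (limma adjusted p = 0.0122 and 0.0109), and Lmnb1 also in CD14-deficient cells, at -2.22 ± 0.32 (limma adjusted p = 0.0320). With LPS and thapsigargin, 9.19% and 9.87% of all probe sets were called lower in wild-type and CD14-deficient cells. Lmnb1 was called lower in both genotypes, at -1.68 ± 0.32 and -2.12 ± 0.32 (limma adjusted p = 0.0216 and 0.0111). So was Gsn, at -1.68 ± 0.21 and -1.79 ± 0.21 (limma adjusted p = 0.00820 and 0.00655). Prkcd was also lower in both, at -1.19 ± 0.24 and -1.07 ± 0.24 (limma adjusted p = 0.0250 and 0.0314), and Vim in CD14-deficient cells at -0.58 ± 0.15 (limma adjusted p = 0.0475). Casp12 read 1.1 to 14.2 and Casp14 0.9 to 9.2, under the filter on all arrays. The calls of these partner genes, unlike those of the members, were not recomputed with single arrays left out.

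Genes whose log2 signal followed a member most closely over the 10 arrays were found among all probe sets in the model. For Casp4 they were Dnajc1, Pttg1 and Sra1, with Pearson r of 0.992, 0.990 and 0.990. For Casp1 they were Slc11a2, Tmem230 and Eif6, with 0.983, 0.979 and 0.978. For Htra2 they were Ccdc90b, Fkbp9 and Nf2, with 0.965, 0.953 and 0.949. Casp2 was followed by Trim27 at 0.989, Casp9 by Cggbp1 at 0.981 and Apaf1 by Rspry1 at 0.977. The closest to Casp8 was Trir at 0.950 and to Casp6 Bmyc at 0.942. These are the top ranks of 11649 probe sets over 10 arrays that share 6 culture conditions, and are given as a description.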

How the data were processed

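The data are the deposited series matrix values of 10 Affymetrix mouse arrays, 1 for each condition. The authors computed these values, a linear intensity for each probe set, with MAS5, per the submitters' processing notes (version and target signal: not given in the sources used here). Of 22690 probe sets, 64 were controls, 20380 carried 1 symbol in the platform table, 691 several and 1619, controls included, none; 20351 matched RefSeq (GRCm38.p6) and 0 symbols changed. Columns had 2% trimmed means of 444 to 553 and were scaled to 509. A floor of 13.4, the 25th percentile of all scaled signals, was set before taking log2. Probe sets above the pooled median on at least 2 arrays were kept, 11649 for 7476 genes. A linear model in limma 3.58.1 (R 4.3.3) had 6 levels of genotype and treatment and a term for time, with trended eBayes (3 residual degrees of freedom, prior 2.98); no sample was dropped or imputed. P-values were two-sided and Benjamini-Hochberg adjusted over all 11649, with a threshold of 0.05. Unstimulated levels rest on 1 array each, assumed to vary like the rest. The code was tested on simulated data. The labels do not say whether cultures or mice were shared between arrays. All 8 members are named, with every probe set; of each pathway list, the counts called in each direction and up to 4 genes with the largest change among those called; and for each member the 3 genes most alike. The members and lists were chosen with earlier results of these data known. Alternatives changed the scaling, floor, filter, trend, time term, probe set rule and the arrays kept.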

Additional observations from a re-analysis of the deposited data

Results flagged for a closer look

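In 5 cases a step, LPS against unstimulated or thapsigargin added to LPS, went one way at both times in 1 genotype. In the other genotype it went the opposite way at both times. The LPS and thapsigargin steps of Htra2 share their LPS arrays, so these cases are not separate. The Casp8 step in wild-type cells at 60 h was only 0.03. For Casp8 the thapsigargin effect, wild type minus CD14-deficient, was 0.58 on the log2 scale. For the dimmer of the 2 Htra2 probe sets the difference of LPS responses was -1.01 and that of thapsigargin effects 1.42. For the brighter these were -1.43 and 1.60. The interaction tests gave limma adjusted p = 0.423, 0.674, 0.292, 0.509 and 0.207 in that order, so none passed. Opposite directions were found in 8.62% of all probe sets for thapsigargin and 5.33% for LPS.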

How the results depend on the processing

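The count of the 9 member probe sets called was recomputed under 18 alternatives. With LPS in wild-type cells (1 called) it was 2 under quantile normalization, 2 with 1 probe set a gene, and 6 without both arrays of lowest cRNA yield. With LPS in CD14-deficient cells (1 called) it was 0 with no filter and 2 without both low-yield arrays. With LPS and thapsigargin (1 called in each genotype) it was 4 in wild-type and 7 in CD14-deficient cells without both low-yield arrays. For thapsigargin added to LPS (0 called) it was, in CD14-deficient cells, 1 under quantile normalization and 1 with no time term. For wild type against CD14-deficient under LPS (1 called) it was 2 under quantile normalization and 2 with 1 probe set a gene. In that comparison it was also 2 with a pseudocount of 32 in place of the floor, and 0 with no filter. Leaving out both low-yield arrays moved the counts of these comparisons too, but leaves 1 LPS array in each genotype, so those counts are not given. An unstimulated array is the only one of its condition and could not be left out. Leaving out a stimulated array leaves 1 array in its condition. The highest member counts from these omissions came without a CD14-deficient LPS array. Without it, calls over all probe sets also rose with LPS, with thapsigargin and between the genotypes under LPS. High member counts from these omissions are therefore not a result about the members alone. Leaving out each stimulated array in turn gave 1 to 5 and 0 to 5 with LPS in wild-type and CD14-deficient cells, 0 to 3 and 0 to 5 with LPS and thapsigargin, 0 to 1 and 0 to 8 for thapsigargin, 0 to 8 for the genotypes under LPS, 0 to 4 for the difference of LPS responses and 0 to 8 for that of thapsigargin effects. Without both low-yield arrays 49.0% and 27.1% of all probe sets were called with LPS in wild-type and CD14-deficient cells, against 66.7% and 22.2% of members, and 59.7% and 60.9% with LPS and thapsigargin, against 44.4% and 77.8%. With the 48 h or the 60 h LPS array of CD14-deficient cells left out, 4809 and 4816 were called with LPS in wild-type cells, against 1658 with all arrays. Over all probe sets the wild-type LPS count was 1836 under quantile normalization. Casp2 with thapsigargin in CD14-deficient cells reversed, from 0.19 to -0.69, without the LPS array at 60 h (limma adjusted p = 0.0346), and was 1.06 without that at 48 h; each leaves 1 array in that condition. The labels number no replicates, so no replicate block was fitted; the 5 genotype pairs, matched by treatment and time, were described and not tested as pairs. Signal over background limited Casp9 and Apaf1 to 1 probe set each. Without replicate cultures, no result here has an estimate of biological spread.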
